A study of Mus musculus with 4 samples.

Results

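Kruppel-like factors are transcription factors that bind GC-rich and CACCC-type sequences through zinc fingers at their carboxy terminus. Of the 10 family members described here, Klf9 and Klf4 fell in mouse glioma-initiating cells in which an RNA hairpin (shRNA) was directed at Eva1. Klf15 rose there, but at a low signal, and its call was lost under several alternative settings. The calls of Klf9 and Klf4 did not all hold with an Eva1 shRNA array left out. The members were Klf2, Klf3, Klf4, Klf5, Klf6, Klf7, Klf9, Klf10, Klf13 and Klf15, taken by gene symbol in the annotation of the array. Each had 1 probe, so 10 of the 23473 probes on the array were members, and all 10 probes had a value on every array.

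The cells were NSCL61, a glioma-initiating line made from mouse neural stem cells that lack p53 and express an oncogenic HRas, which both groups share. Its labels give strain C57BL6, brain as the tissue and developmental stage P0. The 2 control arrays are labelled as NSCL61 alone, while the series title speaks of a control hairpin, and the 2 Eva1 shRNA arrays are labelled as NSCL61 with the shRNA. Transfected cells were selected with hygromycin, no age or further treatment is given, and NSCL61 is a single line, so that other lines are not represented. Whether the hairpin cells were 1 clone or a pool, and whether arrays within a group stem from separate cultures, is not stated, so p-values reflect just the spread among these 4 samples, and that spread may be technical. The line was compared with its labelled origin through Nes and Vim, cytoskeletal genes of neural stem cells, which had deposited intensities of 430 to 537 and of 15332 to 26085 over the 4 arrays, against an array median of about 25. They were picked after their values were seen from 12 neural stem cell markers looked for. Of these, 3 of the 8 measured exceeded the median on no array, Prom1, Slc1a3 and Gfap were blank on at least 1 array, and Sox2 was not analysed here.

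The family is commonly sorted by the partners its members recruit. Klf2, Klf4, Klf5, Klf6 and Klf7 are mostly activators that work with acetyltransferases. Klf3 is a repressor that recruits the corepressor CtBP, and Klf9, Klf10 and Klf13 recruit the corepressor Sin3. Klf15 is placed outside these groups and is known as a hormone-induced regulator of metabolism. Several members control whether cells divide or differentiate, and Klf4 is one of the factors used to reprogram cells to pluripotency.

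The sequences just before the start sites of 4 members are given here with the matches to 4 short motifs. Klf9 and Klf4 are shown because both fell, Klf15 because it rose, and Klf2 because it is a close relative of Klf4 that did not pass the test. Each run holds the 250 bases before the gene's start in RefSeq (GRCm38.p6), on the gene's own strand. Of the 10 factors, 8 had an entry there, all but Klf5 and Klf10. Capitals mark matches on either strand to CACCC (the core bound by the family itself), GGGCGG (the GC box of the related Sp factors), CACGTG (an E-box) and CTAAA followed at once by its reverse complement TTTAG (a palindrome of the kind bound by MEF2 factors), and neighbouring matches may share bases. The windows are chr19:23140976-23141225 on the plus strand for Klf9, chr4:55532476-55532725 on the minus strand for Klf4, chr6:90462326-90462575 on the plus strand for Klf15 and chr8:72318812-72319061 on the plus strand for Klf2.
Klf9: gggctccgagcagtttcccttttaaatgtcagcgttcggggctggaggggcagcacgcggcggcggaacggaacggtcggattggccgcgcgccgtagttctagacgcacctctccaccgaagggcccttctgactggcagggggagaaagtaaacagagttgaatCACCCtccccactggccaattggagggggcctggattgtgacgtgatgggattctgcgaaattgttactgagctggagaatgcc
Klf4: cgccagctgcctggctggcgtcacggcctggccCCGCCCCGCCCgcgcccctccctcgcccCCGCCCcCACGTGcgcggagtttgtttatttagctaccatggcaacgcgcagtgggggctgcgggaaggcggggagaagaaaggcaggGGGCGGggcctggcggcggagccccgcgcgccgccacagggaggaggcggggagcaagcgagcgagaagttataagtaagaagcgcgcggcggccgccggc
Klf15: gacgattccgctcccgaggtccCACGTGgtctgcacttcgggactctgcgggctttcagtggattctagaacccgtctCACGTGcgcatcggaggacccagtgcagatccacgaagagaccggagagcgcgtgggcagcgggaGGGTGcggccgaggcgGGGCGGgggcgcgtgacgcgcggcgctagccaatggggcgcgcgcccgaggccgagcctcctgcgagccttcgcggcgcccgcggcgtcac
Klf2: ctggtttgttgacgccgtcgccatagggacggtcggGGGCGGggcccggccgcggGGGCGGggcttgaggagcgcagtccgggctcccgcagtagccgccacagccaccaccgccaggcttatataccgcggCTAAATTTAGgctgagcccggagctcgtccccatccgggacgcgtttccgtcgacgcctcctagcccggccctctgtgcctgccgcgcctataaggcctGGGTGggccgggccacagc

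The Klf9 window held 1 CACCC match and 0 GC boxes, while that of Klf4 held 4 GC boxes, 1 E-box and 0 CACCC matches. In the Klf15 window there were 2 E-boxes, 1 GC box and 1 CACCC match. The MEF2-type palindrome was found before Klf2 and before no other of the 8 members, and it occurs in 0.0396% of the 32817 windows of this length. Only this exact sequence was searched. Its counts therefore do not show how common MEF2-type sites with other letters are, before these members or before all genes. The windows of the 8 members held 59.2 to 78.4% G and C, against a median of 52.4% over all windows. CACCC was present in 52.0% of all windows and in 6 of the 8 members' windows, without adjustment for that difference. The GC box was present in 32.7% and in 7, and the E-box in 6.02% and in 3, likewise unadjusted. The 2 genes that fell together thus shared none of these 4 matches in this window. A match is a description of the letters and not of a site in use.

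The hairpin lowered its target. Mpzl2, the current name of Eva1, read 55.0 and 54.4 intensity units in control cells against 8.20 and 6.21 with the hairpin (limma log2 change -3.12, adjusted p = 0.00105 over genes). The arrays held values for 20662 to 21842 probes, and 13765 named genes were tested. Intensities are linear units as the authors scaled them. Log2 levels were quantile normalized between arrays before testing, and every log2 change is the Eva1 shRNA mean less the control mean. Adjusted p-values are from limma's moderated test over all 13765 genes, two-sided, with Benjamini-Hochberg adjustment and a threshold of 0.05. The precision is limited by the 2 arrays in each group.

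Of the 10 factors, 2 fell, 1 rose and 7 did not pass the test. Among all genes tested 26.0% passed, 13.5% lower and 12.5% higher, so the share of the family that passed is close to the background. Their median log2 change was -0.22, against -0.01 over all genes. After normalization the 2 control and 2 Eva1 shRNA values did not overlap for 9 factors (66.7% of all genes), 8 of them lower (34.1% of all genes), but on the deposited scale this held for only 5 (3 lower and 2 higher), against 68.6% of all genes on that scale. The direction of the small changes therefore depends on the scaling. On the deposited scale the median change of all genes was 0.18, and 5 factors had a change below 0, against 8 after normalization (51.2% of all genes).

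**Figure D1:**
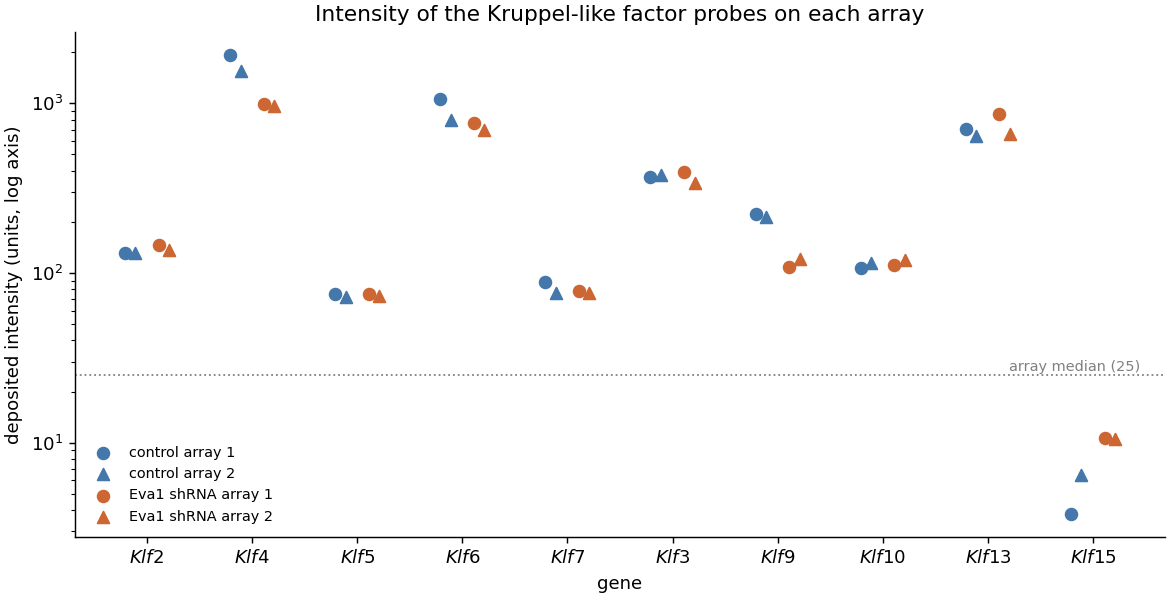
Deposited intensity of the single probe of each Kruppel-like factor (linear units on a log axis) on the 2 control arrays (blue) and the 2 Eva1 shRNA arrays (orange), with circles for array 1 and triangles for array 2. The dotted line is the array median of 25. Klf4 and Klf9 are lower on both Eva1 shRNA arrays, and Klf15 lies under the array median on all 4 arrays. The groups of Klf3, Klf5, Klf7, Klf10 and Klf13 overlap.

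Klf4 was the activator-type member that fell. The gene encodes a reprogramming factor that also restrains smooth muscle genes and drives epithelial differentiation. Control cells gave deposited intensities of 1920 and 1553, and hairpin cells 983 and 965. Both Eva1 shRNA values lay below both control values, and the control arrays differed more from each other than the Eva1 shRNA arrays did. The log2 level went from 10.82 ± 0.17 to 9.86 ± 0.0016 (SD, n = 2 each), a change of -0.96 (standard error 0.15, limma adjusted p = 0.011), and thus 1.94-fold lower with a 95% interval of 0.394 to 0.672 for the ratio of Eva1 shRNA to control. A lower change was measured for 7.22% of all genes. The call was lost without Eva1 shRNA array 1 (limma adjusted p = 0.068) and without Eva1 shRNA array 2 (0.0638), while the change stayed between -1.08 and -0.83 whichever array was left out.

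Klf6, a widely expressed early-response factor often described as a tumour suppressor, stood next in size. Its deposited intensities were 1057 and 796 in control and 770 and 699 in Eva1 shRNA cells. The groups did not overlap, but the gap between them was smaller than the gap between the control arrays. The log2 change was -0.47 with a standard error of 0.18, and it did not pass (limma adjusted p = 0.115). It did pass with 16 intensity units added before log2 (adjusted p = 0.0238), without the dimmest 25% of probes (0.0453) and with a variance that follows the level (0.016), and its adjusted p ran from 0.016 to 0.326 over all alternatives. The low bound of its 95% interval, -0.92 on the log2 scale, was the farthest from 0 among the 7 factors that did not pass.

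Klf2, Klf5 and Klf7 did not pass the test. Klf2, known for keeping endothelial cells and T cells quiescent, had deposited intensities of 131 and 131 in control and 145 and 137 in Eva1 shRNA cells. Both Eva1 shRNA values were higher on that scale, whereas after normalization the log2 change was -0.08 (95% interval -0.42 to 0.26, limma adjusted p = 0.685), so that its direction is not settled. Klf5, a factor of dividing epithelial cells, had intensities of 75.4 and 71.7 in control and of 75.0 and 72.8 in Eva1 shRNA cells. The groups overlapped on the deposited scale, and the log2 change was -0.20 after normalization and 0.0065 without it (interval after normalization -0.55 to 0.15). Klf7, which acts in the growth of axons, had 88.7 and 75.9 in control and 78.7 and 76.0 in Eva1 shRNA cells. Control array 1 alone stood above the other 3, and the log2 change was -0.29 (interval -0.68 to 0.10, limma adjusted p = 0.223).

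Klf3, the CtBP-recruiting repressor of the set, did not pass the test either. Its deposited intensities were 369 and 379 in control and 391 and 337 in Eva1 shRNA cells, so the control values lay between the 2 Eva1 shRNA values. The log2 change was -0.23 after normalization (95% interval -0.59 to 0.13, limma adjusted p = 0.283) and -0.04 on the deposited scale.

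Klf9 had the lowest change of the family and was the member of the Sin3 group that fell. It is a factor induced by glucocorticoid and thyroid hormones that acts in the maturation of neurons. Intensities of 222 and 214 in control cells stood against 109 and 121 with the hairpin. The groups were well apart, and the arrays within each were close. The log2 level went from 7.85 ± 0.04 to 6.74 ± 0.14 (SD, n = 2 each), a change of -1.10 (standard error 0.15, limma adjusted p = 0.00691), or 2.15-fold lower with a 95% interval of 0.359 to 0.604 for the ratio. For 5.61% of all genes the change was lower still. The call narrowly failed without Eva1 shRNA array 1 (limma adjusted p = 0.0514), with the change between -1.21 and -1.0 whichever array was left out.

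The other Sin3-recruiting factors differed from Klf9 in their values. Klf10, an early gene of transforming growth factor beta signalling, had deposited intensities of 107 and 114 in control and 112 and 119 in Eva1 shRNA cells. These overlapped, and the log2 change was -0.14 after normalization and 0.06 on the deposited scale (95% interval after normalization -0.50 to 0.23). Klf13, known as an activator of the chemokine gene Ccl5 in T cells, had 704 and 639 in control and 870 and 659 in Eva1 shRNA cells. It was the member whose groups overlapped on both scales, and its log2 change was 0.03 (interval -0.40 to 0.47, limma adjusted p = 0.902), with the sign turning to -0.03 under median centring. The intervals of Klf10 and Klf13 lay wholly above the upper bound of Klf9, -0.73, as did those of 7 of the 10 factors, Klf15 included, but the difference between genes was not tested.

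Klf15 was the factor that rose, at a low signal. It is known as a glucocorticoid-induced regulator of amino acid breakdown. Control cells gave deposited intensities of 3.81 and 6.41, and hairpin cells 10.6 and 10.5. Both Eva1 shRNA values were higher, yet all 4 lay under the array median of about 25. Of the values of partly blank probes 95% were below 4.71, and the value of Klf15 on control array 1 lay in that range while the other 3 lay above it. The log2 level went from 2.41 ± 0.45 to 3.28 ± 0.05 (SD, n = 2 each), a change of 0.87 (standard error 0.24, limma adjusted p = 0.048). With 16 intensity units added before log2 the change was 0.27 and the call was lost (adjusted p = 0.0647). Omitting control array 1 (0.0995) or either Eva1 shRNA array (0.153 for array 1 and 0.174 for array 2) also ended it, as well as with median centring (0.0507), filled blank cells (0.124) and robust variances (0.0509).

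**Figure D2:**
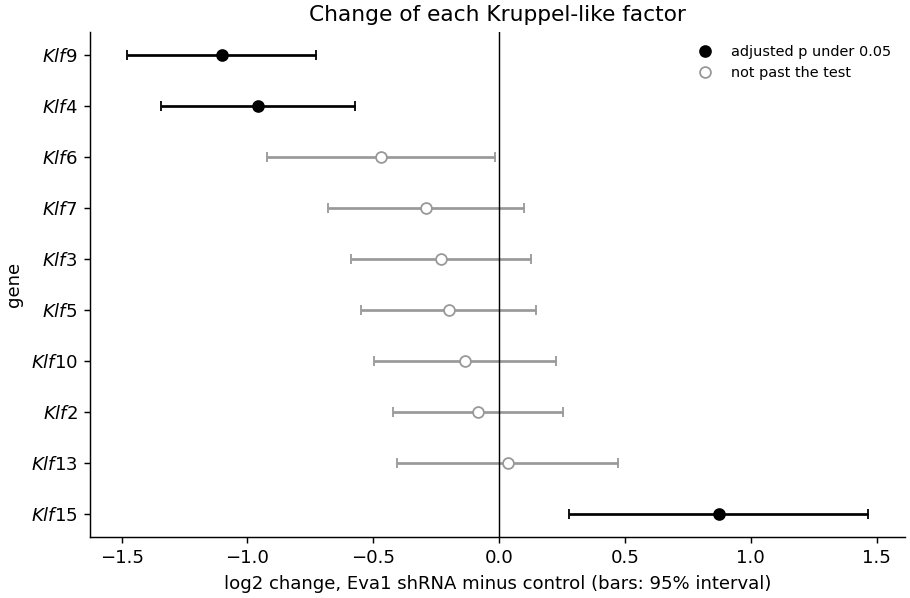
Log2 change (Eva1 shRNA minus control) of each Kruppel-like factor with its 95% interval from limma, ordered by size. Filled points passed at adjusted p under 0.05. Klf9 (-1.10) and Klf4 (-0.96) lie lowest, Klf15 (0.87) lies highest, and the interval of Klf6 ends at -0.02 without passing after adjustment.

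Considered as a set, the 7 factors that did not pass had intervals that all lay within a 2-fold change in either direction, and 4 of them (Klf2, Klf5, Klf10 and Klf13) within a 1.5-fold change. Standard errors of the 10 factors ran from 0.13 to 0.24, around a median of 0.16 over all genes. Control array 1 was above control array 2 for 7 of the 10 factors after normalization, and for 55.7% of all genes. Leaving out control array 1 moved the change of Klf6 to -0.27 and that of Klf7 to -0.16, while leaving out control array 2 moved them to -0.66 and -0.41.

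**Figure D3:**
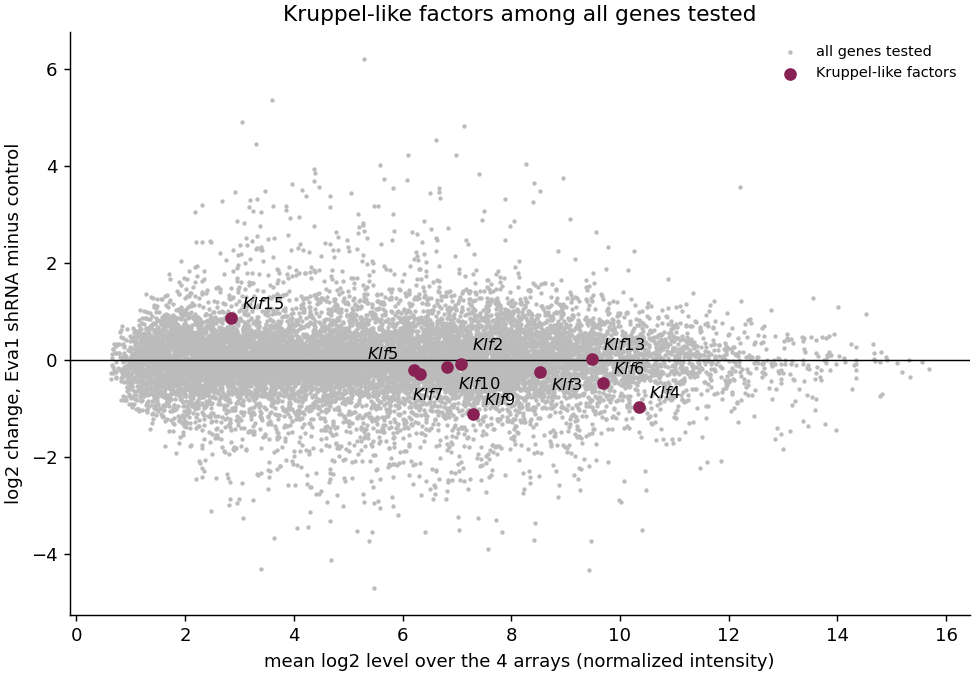
Log2 change (Eva1 shRNA minus control) against the mean normalized log2 level over the 4 arrays for all 13765 genes tested (grey) and the 10 Kruppel-like factors (purple). Klf15 lies among dim probes, where grey points with changes of its size are common, and Klf9 and Klf4 lie at the lower edge of the dense part of the cloud.

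The rest of the family gave few readings. Of 16 other Klf and Sp genes looked for, 10 had a value on every array, of which 0 rose, 1 fell and 9 did not pass, with a median change of -0.02. Over all genes 26.0% passed. Only 2 of these probes, those of Sp1 and Sp3, exceeded the array median on all arrays. Sp3, a broadly expressed relative that competes for GC boxes, had intensities of 157 and 164 in control and 154 and 148 in Eva1 shRNA cells and a log2 change of -0.26, and Sp1 had -0.18. The member that fell, Sp4, a factor abundant in neurons, had intensities of 6.21 and 5.93 against 3.83 and 4.69 and a log2 change of -0.73 (limma adjusted p = 0.0405). That call was lost whichever array was left out (adjusted p of 0.143 or 0.0801 for control array 1 or 2, and of 0.184 or 0.0652 for Eva1 shRNA array 1 or 2), and its change was -0.18 with 16 units added. The dim probes of Sp6 (0.78), Klf16 (0.08), Klf17 (0.07), Klf1 (-0.0039), Sp7 (-0.04) and Klf11 (-0.05) did not pass. Nor did Klf8 (0.03), whose intensities of 19.5 to 27.4 lay near the array median. For Klf1, Klf11, Sp1 and Sp7 the sign turned on the deposited scale.

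Partners of the family changed in both directions. Of 15 corepressors and coactivators listed, 11 were measured, of which 3 rose, 1 fell and 7 did not pass (median change 0.04). The shares over all genes were 12.5% higher and 13.5% lower. Sin3b, a scaffold of the Sin3 complex used by Klf9, Klf10 and Klf13, fell from intensities of 17109 and 15906 to 7136 and 8228 (log2 change -1.34, limma adjusted p = 0.0052). Ctbp1, the partner of Klf3, rose from 165 and 179 to 377 and 339 (0.88, adjusted p = 0.011), as did the acetyltransferase gene Crebbp (0.72, or 0.32 with 16 units added) and Parp1 (0.59). Sin3b passed whichever array was left out, whereas the genes that rose numbered 0 or 1 when a control array was left out (array 1 or 2) and 0 or 0 when an Eva1 shRNA array was. The related partners Sin3a and Ctbp2 did not pass.

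Genes for the turnover of Kruppel-like proteins were all measured, and 1 of the 10 rose, 2 fell and 7 did not pass (median change -0.32). Among all genes 26.0% passed. Smurf1, a ubiquitin ligase, fell from intensities of 58.4 and 55.3 to 25.9 and 24.2 (log2 change -1.37, limma adjusted p = 0.00353). Fbxw7, the ligase subunit that marks Klf2 and Klf5 for breakdown, fell by 0.86 on the log2 scale and by 0.52 with 16 units added, and the deubiquitinase gene Usp10 rose by 0.61. Fbxo32, a ligase subunit of muscle wasting, had a log2 change of -0.67 without passing. It did pass with 16 units added (limma adjusted p = 0.0315), with a variance that follows the level (0.0142) and without the dimmest 25% of probes (0.0192). Its change ran from -0.95 to -0.39 with an array left out. Smurf1 passed whichever array was left out. Fbxw7 and Usp10 failed in each case (limma adjusted p up to 0.0829 and 0.152).

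Among 22 upstream regulators, 17 were measured, of which 3 rose, 1 fell and 13 did not pass (median change 0.04), where 26.0% of all genes passed. Tgfbr2, the type II receptor of the pathway that induces Klf10, rose from intensities of 75.4 and 93.5 to 282 and 232 (log2 change 1.43, limma adjusted p = 0.00513). Srf, the serum response factor, rose by 1.31 and Foxo3 by 0.59, the latter at intensities of 3.30 to 6.52 and with 0.14 after adding 16 units. Hif1a, the oxygen-regulated factor, fell from 268 and 248 to 149 and 146 (-0.98, adjusted p = 0.00783). The MAP kinase genes Map2k5 (0.09) and Mapk7 (0.10), which act upstream of Klf2 and Klf4 through MEF2 and were named after their values were seen, did not pass. Tgfbr2 and Srf passed whichever array was left out, Hif1a failed without Eva1 shRNA array 1 (0.0558) and array 2 (0.0514), and Foxo3 failed in every case (up to 0.202).

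**Figure D4:**
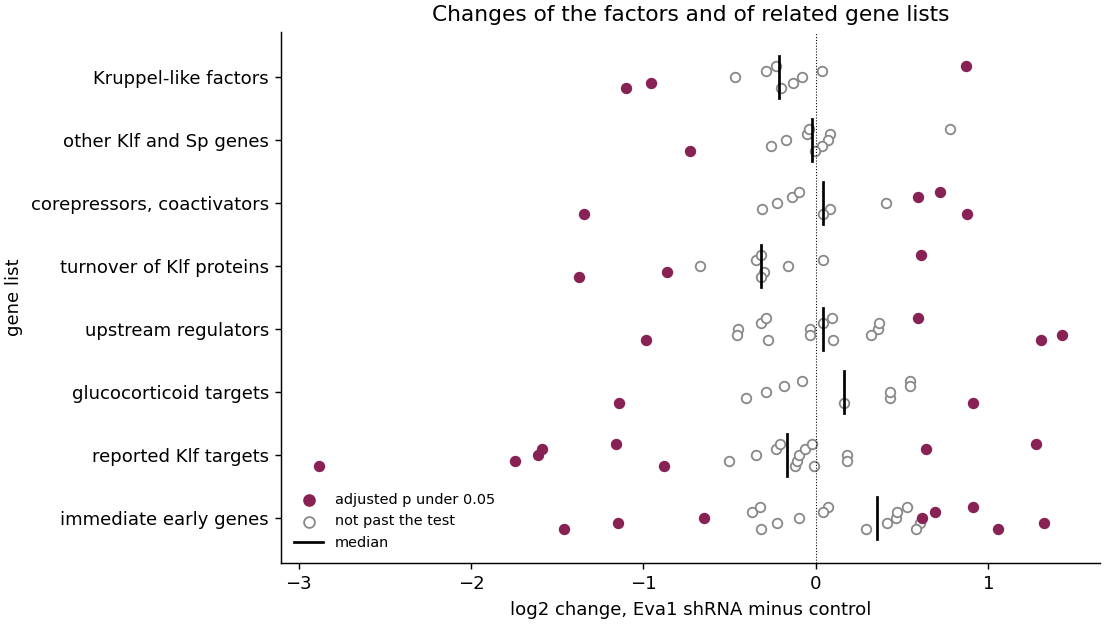
Log2 change (Eva1 shRNA minus control) of the 10 Kruppel-like factors and of the measured genes of 7 related lists. Filled points passed at adjusted p under 0.05, open points did not, black bars are list medians, and height within a row has no meaning. Each list has points on both sides of 0, and Plau, a reported Klf target, lies farthest to the left at -2.88.

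Of the genes listed here as reported targets of these factors, more were called lower than higher. The list was chosen with earlier results of these data known, so its counts are not independent evidence on such targets. Of 28 listed, 20 were measured, of which 2 rose, 6 fell and 12 did not pass, with a median change of -0.17 (0.03 on the deposited scale). Plau, the urokinase gene and a reported target of Klf6, fell from intensities of 26.6 and 22.1 to 4.11 and 3.42 (log2 change -2.88, or -1.11 with 16 units added, limma adjusted p = 0.00116). Smad7, an inhibitor of transforming growth factor beta signalling linked to Klf10, fell by 1.61. The reported Klf2 targets Nos3, the endothelial nitric oxide synthase gene, and S1pr1, a lipid receptor gene, fell by 1.59 and 1.74, although Klf2 itself did not pass. These 4 genes passed whichever array was left out.

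Other reported targets that passed were picked for mention once their values were known. The cell cycle inhibitor gene Cdkn1a, linked to Klf4 and Klf6, fell from intensities of 293 and 342 to 141 and 185 (log2 change -1.16, limma adjusted p = 0.0148), and Tgfb1 fell by 0.88. Prodh, the proline dehydrogenase gene linked to Klf15, rose from 15.0 and 21.4 to 54.6 and 45.5 (1.28, adjusted p = 0.00972). Other metabolic genes on the list, Bcat2 (-0.12) and the dim Slc2a4 (-0.02), did not pass. Ccl5, linked to Klf13, rose by 0.64. With single arrays omitted, the highest adjusted p was 0.0704 for Cdkn1a, 0.101 for Tgfb1 and 0.0626 for Prodh, each without Eva1 shRNA array 1, and 0.198 for Ccl5 without Eva1 shRNA array 2. The targets that fell numbered 4 or 4 when a control array was left out (array 1 or 2) and 4 or 6 when an Eva1 shRNA array was. Of all genes 12.5% rose and 13.5% fell, but the targets were drawn from work on other cells and 1 gene can be a target of several factors.

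Klf9 and Klf15 are both hormone-responsive genes, and they moved in opposite directions here. Of 13 glucocorticoid receptor targets, 11 were measured, of which 1 rose, 1 fell and 9 did not pass (median change 0.16), where 26.0% of all genes passed. Sgk1, a kinase gene, fell from intensities of 1424 and 1217 to 678 and 643 (log2 change -1.14, limma adjusted p = 0.00574), and the phosphatase gene Dusp1 rose by 0.91 (adjusted p = 0.0299). The metallothionein genes Mt1 (0.55) and Mt2 (0.43) did not pass, nor did Fkbp5 (0.16), Tsc22d3 (-0.19) and Per1 (0.54). The last 3 were named after their values were seen. Mt1 and Mt2 did pass on the deposited scale (limma adjusted p = 0.0195 and 0.0216) and with 16 units added (0.00372 and 0.0067). They did not pass with filled blank cells (0.0708 and 0.0627). Per1 passed with a variance that follows the level (0.0444). Sgk1 passed whichever array was left out, while Dusp1 failed without control array 1 (0.109), control array 2 (0.0906) and Eva1 shRNA array 2 (0.11). The receptor gene Nr3c1 was blank on control array 2 and had intensities of 2.16 to 6.28 on the other 3 arrays, so it was not tested.

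Immediate early genes, a class to which Klf4, Klf6 and Klf10 are often added, were mixed. Of 25 listed, 22 were measured, of which 5 rose, 3 fell and 14 did not pass (median change 0.35, or 0.55 on the deposited scale). The shares over all genes were 12.5% higher and 13.5% lower. Ier3, a survival gene, fell from intensities of 14309 and 13599 to 5751 and 5951 (log2 change -1.46), and Dusp6, a feedback phosphatase gene of the ERK pathway, fell by 1.14. The matricellular genes Ccn1 and Ccn2 rose by 1.06 and 1.32, the latter at intensities of 5.06 to 18.1 and with 0.50 after adding 16 units. Dusp1 was the gene shared with the hormone list, and Egr2 (-0.65), Nr4a1 (0.62) and Zfp36 (0.69, or 0.30 with 16 units added) also passed and were named after their values were seen. Ier3, Dusp6 and Ccn1 passed whichever array was left out, Ccn2 failed without Eva1 shRNA array 2 (limma adjusted p = 0.0669), and Egr2, Nr4a1 and Zfp36 failed in every case (up to 0.166, 0.179 and 0.191). The genes that rose numbered 2 or 3 when a control array was left out (array 1 or 2) and 3 or 1 when an Eva1 shRNA array was, 10 on the deposited scale and 1 with blank cells filled.

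Markers of other cell types moved beside these results in part. For the marker counts that follow, 12.5% of all genes rose and 13.5% fell. Of 10 endothelial markers, the cells best known for Klf2 and Klf4, 6 were measured and 5 lay under the array median on every array. Flt1, the exception, fell by 2.05 on the log2 scale, and the dim gene Emcn rose by 0.76 (0.15 with 16 units added). The summed intensity of the list went from 572 and 574 to 185 and 181, but most of it was Flt1, and the other 5 genes summed to 29.6 and 28.3 in control cells and to 37.3 and 33.7 with the hairpin. The defining genes Pecam1, Cdh5, Tek and Cldn5 were blank on at least 1 array and did not exceed 4.46 on any, near the lowest values of the arrays (1.19 to 1.44). Vwf (-0.49) and Esam (0.71) did not pass.

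For microglia and macrophages, 7 of 10 markers were measured, 0 rose and 2 fell, Cd68 by 1.17 and Fcer1g by 1.06 (0.39 with 16 units added), and the summed intensity went from 269 and 230 to 183 and 176. Without Cd68 the other 6 genes summed to 87.6 and 81.3 in control cells and to 106 and 86.7 with the hairpin. Itgam, Ptprc and Adgre1 were blank on at least 1 array, and Cx3cr1 (0.54) and Csf1r (0.25) did not pass. Of 10 fibroblast and mural markers, 9 were measured, 3 rose and 1 fell, and the summed intensity went from 849 and 941 to 1711 and 1471, or from 239 and 215 to 630 and 473 without Col3a1, which moved the sum most and did not itself pass. Acta2, the smooth muscle actin gene that Klf4 is known to restrain, rose from 4.04 and 4.38 to 408 and 316 (log2 change 6.22, or 4.10 with 16 units added). Of the smooth muscle genes among the reported Klf targets, Tagln had intensities of 1.64 to 3.59 and a log2 change of -0.35 without passing. Cnn1, from the same list, was blank on control array 2 and Eva1 shRNA array 2 and was not tested. Both were named after their values were seen. Col1a2 rose by 0.76 and Pdgfrb by 0.54, and Rgs5 fell by 2.53 (0.86 with 16 units added). Of 12 neural stem cell markers, 8 were measured, 0 rose and 2 fell, Fabp7 by 1.15 (0.59 with 16 units added) and Cd44 by 0.76 (0.28 with 16 units added), while Nes (-0.47) and Notch1 (0.69) did not pass. Their summed intensity went from 17162 and 16085 to 26770 and 20904, most of it from Vim (log2 change 0.33, not passed, named after its value was seen), and the other 7 genes summed to 754 and 753 in control cells and to 685 and 637 with the hairpin. Flt1, Acta2 and Fabp7 passed whichever array was left out, and the other marker genes that passed failed in at least 1 such case. Nes and Notch1 gained a call with 16 units added (limma adjusted p = 0.00426 and 0.0262) and with a variance that follows the level (0.00682 and 0.00968). On the deposited scale they did not pass (0.147 and 0.0589), while Cx3cr1 did (0.0303). All 4 samples are labelled as the single line NSCL61, so these markers are given as genes of that line and not as counts of other cell types. Their relation to the changes of Klf4, Klf9 and Klf15 was not tested. In a bulk sample fewer cells with a marker cannot be told apart from less RNA per cell.

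**Figure D5:**
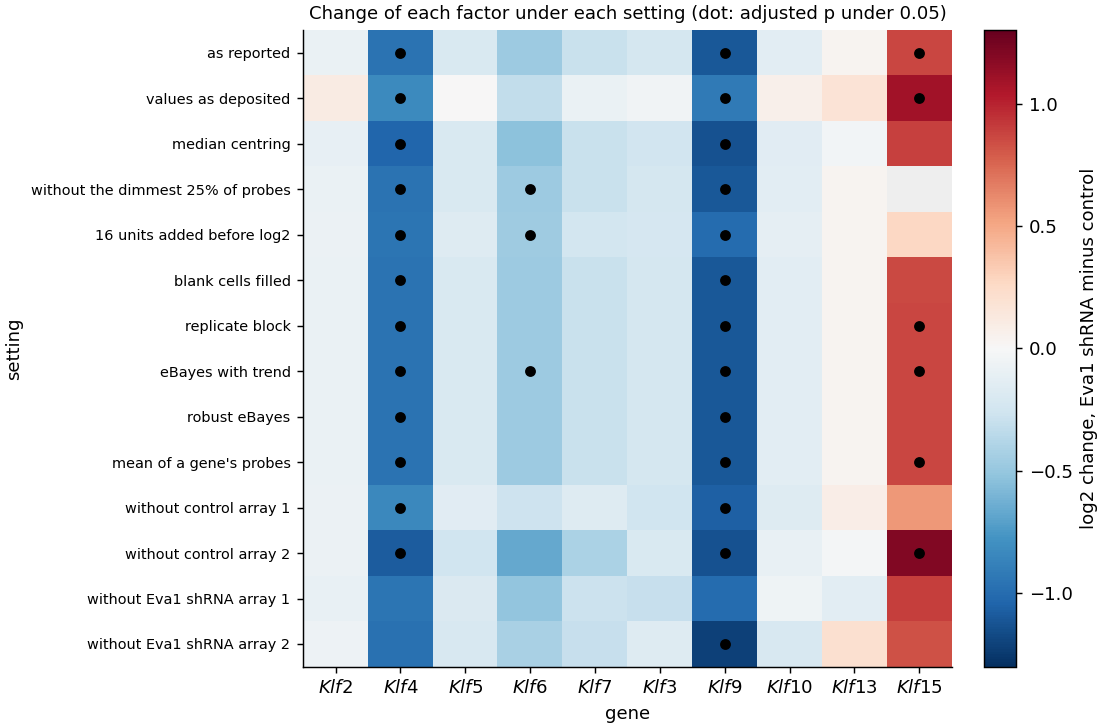
Log2 change (Eva1 shRNA minus control, colour scale) of each Kruppel-like factor under each setting of the analysis, with a black dot where the adjusted p was under 0.05 and light grey where the gene was left out. Klf9 and Klf4 are blue in every row and lose their dots only where an Eva1 shRNA array is left out, Klf15 has a dot in some rows only, and Klf2, Klf5, Klf10 and Klf13 change colour between scalings or arrays.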

How the data were processed

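Messenger RNA of 4 samples of NSCL61 cells was measured on 1-colour 3D-Gene mouse chips labelled with Cy5, per the labels. The deposited intensity values are linear and have a median near 25 on every array, so they had been scaled, in a way no label records. The scanner, background correction and rule for blank cells have no statement in the labels. Of 23473 probes, 16631 had 1 gene symbol, 0 several and 6842 none, and 3947 symbols were updated through RefSeq (GRCm38.p6).

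Log2 intensities of the 19199 probes with a value on all arrays were quantile normalized, because array medians over these probes alone differed by 0.274 on the log2 scale (limma 3.58.1, R 4.3.3). The brightest probe stood for a gene, which left 13765 genes, compared with lmFit and eBayes. The fit was also run on simulated data whose spread was drawn from the fit's own variance model. Such a run checks the code and cannot decide whether that model holds for these arrays. Figures were drawn with matplotlib 3.10.9. With 1 array left out, the lone array of its group is assumed to vary like the other group. The members and gene lists were chosen with earlier results of these data known. Named genes were the 10 factors, Mpzl2, all measured Klf and Sp relatives and the 4 smallest p-values of each other list. Another 13 were added once values were known, and a few more, such as Tagln and Bcat2, were named later in passing. The alternatives were other scalings, a filter on dim probes, an added 16 units, filled blank cells, the replicate number as a block, other variance models, the mean of probes, a threshold of 0.1 and each array left out.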

Additional observations from a re-analysis of the deposited data

How the results depend on the processing

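Klf9 and Klf4 fell with adjusted p under 0.05 under every alternative run other than those that left out an Eva1 shRNA array. Without Eva1 shRNA array 1, 0 factors passed as lower (Klf9 -1.0, Klf4 -0.95), and without array 2 Klf9 (-1.21) passed and Klf4 (-0.97) did not. Over the 4 arrays left out, the log2 change ran from -1.21 to -1.0 for Klf9, from -1.08 to -0.83 for Klf4, from 0.56 to 1.20 for Klf15 and from -0.14 to 0.21 for Klf13, and the factors that passed numbered 0 to 1 higher and 0 to 2 lower. The call of Klf15 was lost with median centring (0.89), 16 units added (0.27), filled blank cells (0.86) and robust variances (0.87), and 0 factors were then higher, as without the dimmest 25% of probes, where Klf15 was left out. Klf6 gained a call in 3 settings, a variance trend (-0.47), 16 units added (-0.46) and removal of the dimmest 25% of probes (-0.47).

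On the deposited scale the sign turned for Klf2 (0.11), Klf5 (0.0065), Klf10 (0.063), Klf1 (0.23), Klf11 (0.18), Sp1 (0.024) and Sp7 (0.20), and under median centring for Klf13 (-0.034) and Klf1 (0.021). None of these genes passed the test on either scale. Signs also turned when an array was left out for Klf1 (lowest -0.029, highest 0.021), Klf8 (-0.14 to 0.20), Klf11 (-0.28 to 0.18), Klf16 (-0.030 to 0.19), Klf17 (-0.31 to 0.46), Sp7 (-0.19 to 0.11), Mapk7 (-0.0069 to 0.20) and Tsc22d3 (-0.44 to 0.056). Over all genes the calls were 2714 higher and 1295 lower on the deposited scale, 67.7% higher in place of 48.1%, and with 1 array left out they ran from 541 to 1145 higher and from 730 to 1156 lower, in place of 1720 and 1856. Calls in all were 5000 with a variance trend and 3576 as reported.

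The replicate numbers are shared between groups, and the labels do not say whether they mark a shared culture or batch. Same-numbered arrays did not deviate together across genes (r = -0.0247). That value was taken after quantile normalization, which removes array-wide shifts, so it cannot decide whether such arrays share an origin. With the replicate block 1471 genes were higher and 1631 lower, and Klf9 (-1.10), Klf4 (-0.96) and Klf15 (0.87) kept their calls. Of the 39 named genes beyond the factors that passed, 24 lost the call with at least 1 array left out. The number of arrays and the low signal of Klf15 limit what these data can show. The causes of these shifts were not tested.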
